A study of Rattus norvegicus with 36 samples.

Results

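The genes described here are those of the rat major histocompatibility complex (MHC), which is called RT1, together with 4 genes that its products depend on. Every probe set whose single gene symbol in the platform annotation begins with RT1- was taken, and B2m, Cd74, Ciita and Tapbp were added. This gave 22 genes read by 37 probe sets, of 14217 genes and 31042 named or unnamed probe sets on the array once control spots were set aside. Probe sets of one gene were kept apart, because rat strains carry different RT1 haplotypes and a probe can match one allele better than another.

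The arrays came from mammary glands of 2 rat strains, F344 (Fischer) and Cop (Copenhagen). Rats aged 55 days were given N-nitrosomethylurea (NMU), an alkylating agent that causes mammary tumours, or the saline vehicle as control, and glands were taken 6 h, 1 d or 30 d later. F344 is known as a strain susceptible to NMU-induced mammary cancer and Cop as a resistant one, and the comparison of the strains addresses how their glands respond. Each of the 12 groups of strain, treatment and time has 3 arrays, called biological replicates in the labels, with nothing said of whether each is a separate animal. If they are not, the p-values measure only the spread between arrays. The labels used here give no dose of NMU.

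MHC class I molecules are built from a heavy chain and beta-2-microglobulin, encoded by B2m. They are loaded in the endoplasmic reticulum with peptides that the proteasome makes and the transporter TAP carries in, and are read at the cell surface by CD8 T cells and natural killer cells. Class II molecules are pairs of alpha and beta chains that are escorted by the invariant chain Cd74, loaded with the help of the DM proteins, and read by CD4 T cells; their transcription depends on the coactivator Ciita. Class I genes are widely expressed and are induced by interferons, whereas class II genes are mainly expressed by B cells, dendritic cells and macrophages. Class Ib genes encode class I-like heavy chains of limited polymorphism and more specialised roles. Here the group named class Ib holds the RT1-M, N, S and T24 series only. It was set apart from the RT1-A and RT1-CE series by gene symbol. Genes of the CE series may also be class Ib, so this is no split of classical from class Ib genes.

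Of the 37 probe sets, 32 from 20 genes were above the 40th percentile of their own array on at least 3 arrays and were tested. The 5 others, for RT1-A3 (2 probe sets), RT1-N2, RT1-Bb (1 of 2) and RT1-CE5 (1 of 5), were below that percentile on all 36 arrays, so RT1-A3 and RT1-N2 have no tested probe set. All levels are log2 values as deposited, each probe set's level is compared only with its own level on other arrays, and a change is called where limma's p, adjusted by the Benjamini-Hochberg method over all 20748 probe sets tested, is under 0.05. The array medians lay between 5.66 and 5.77. Markers of mammary epithelium such as Krt8, Krt18 and Epcam were above the 40th percentile on 36 of 36 arrays, and so were those of fat such as Adipoq. Skeletal muscle genes ranged widely from array to array (their mean deviation, explained below, was -5.03 to 3.05). In whole glands, fewer cells of a type and less RNA per cell cannot be told apart.

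In the rat reference assembly GRCr8, 21 of the 22 genes were found, all but RT1-A, and 18 of them lie on chromosome 20. There RT1-N3, RT1-S3, RT1-T24-4 and RT1-T24-3 follow each other with no other protein-coding gene between them. The class II genes RT1-Db1, RT1-Ba and RT1-Bb also adjoin each other. B2m, Ciita and Cd74 lie on chromosomes 3, 10 and 18. Promoter windows from 250 bases before to 50 bases after the annotated start were found in RefSeq for 19 of the 22 genes. Of 5 genes called higher in F344 1 d after NMU, RT1-CE16 is not shown, and its window holds neither motif marked below. The windows of the other 4 and of RT1-Da, a class II chain not called there, are shown here as examples of the classes. They are from GRCr8, which is neither study strain's genome, at chr20:2675278-2675577, chr20:2666239-2666538, chr20:2722875-2723174, chr3:129549080-129549379 and chr20:4515165-4515464, all on the plus strand. Capitals mark the core of the interferon-stimulated response element, GAAANNGAA on either strand, and the core of the class II X box, GCAACNGAT.
RT1-S3: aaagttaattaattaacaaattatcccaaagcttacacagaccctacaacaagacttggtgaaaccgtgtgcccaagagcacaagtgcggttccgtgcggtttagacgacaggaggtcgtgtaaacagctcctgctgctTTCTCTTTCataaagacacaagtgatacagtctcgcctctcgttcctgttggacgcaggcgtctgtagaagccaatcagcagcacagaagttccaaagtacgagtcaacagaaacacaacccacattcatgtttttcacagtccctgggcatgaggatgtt
RT1-N3: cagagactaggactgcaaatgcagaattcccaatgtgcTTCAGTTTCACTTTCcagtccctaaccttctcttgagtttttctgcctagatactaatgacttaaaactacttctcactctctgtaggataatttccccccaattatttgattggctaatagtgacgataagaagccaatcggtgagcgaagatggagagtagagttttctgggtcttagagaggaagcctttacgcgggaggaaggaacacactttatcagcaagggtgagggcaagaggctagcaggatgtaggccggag
RT1-T24-3: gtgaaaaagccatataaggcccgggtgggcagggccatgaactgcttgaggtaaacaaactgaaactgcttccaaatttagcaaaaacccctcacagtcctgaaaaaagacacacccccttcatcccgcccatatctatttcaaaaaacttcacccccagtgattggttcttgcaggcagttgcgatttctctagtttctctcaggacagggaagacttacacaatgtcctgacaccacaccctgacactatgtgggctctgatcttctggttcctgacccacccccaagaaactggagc
B2m: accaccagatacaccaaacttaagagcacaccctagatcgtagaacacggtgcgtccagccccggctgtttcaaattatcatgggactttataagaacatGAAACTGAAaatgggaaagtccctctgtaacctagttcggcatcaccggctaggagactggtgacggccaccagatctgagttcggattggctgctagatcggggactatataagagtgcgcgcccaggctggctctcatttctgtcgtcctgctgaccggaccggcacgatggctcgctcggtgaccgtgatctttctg
RT1-Da: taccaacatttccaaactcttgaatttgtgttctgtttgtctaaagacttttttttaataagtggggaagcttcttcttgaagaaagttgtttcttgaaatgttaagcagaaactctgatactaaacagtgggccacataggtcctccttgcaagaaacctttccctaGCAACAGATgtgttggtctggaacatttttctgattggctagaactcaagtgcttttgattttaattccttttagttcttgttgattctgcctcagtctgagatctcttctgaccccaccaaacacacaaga

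The interferon response core was found in the windows of RT1-S3 and RT1-N3 among 6 genes of the M, N, S and T24 series. It was also found in those of both class I partners, B2m and Tapbp, where RT1-N3 and Tapbp each hold 2 overlapping copies. It was found in none of the 5 windows of the RT1-A and RT1-CE series or of the 4 class II chains or 2 class II partners. The RT1-T24-3 window does not hold these letters. Of all 33469 promoter windows in the table, 9.71% hold the core. The class II X box core was found in RT1-Da and RT1-Db1 and in no other member, and in 0.394% of all windows. The class I enhancer A core, GGGGATTCC, was found in RT1-A3, RT1-CE10 and RT1-CE16, and in 0.281% of all windows. Matches of the interferon gamma activated site, TTCNNNGAA (8.87% of all windows), were limited to RT1-M3-1 among the members. These are matches of letters in a reference window and were not tested as sites.

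In F344 glands, 8 of the 32 tested probe sets rose 1 d after NMU and none fell, so that 25% of the members were called, against 0.81% of all probe sets tested that were called higher. They belong to 5 genes: RT1-T24-3, RT1-S3 and RT1-N3 of the M, N, S and T24 series, RT1-CE16 of the CE series, and B2m. The M, N, S and T24 series held 6 of the 8 calls, over 8 tested probe sets with a median change of +1.20 on the log2 scale. None of the 8 probe sets for class II chains or of the 5 for class II partners was called, and their medians were +0.23 and +0.11. The median over all 32 was +0.32, beside a median of -0.004 over all probe sets tested.

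RT1-T24-3, a class Ib gene, changed most. Its log2 levels in F344 at 1 d were 6.66, 6.80 and 6.74 in the controls and 8.89, 9.02 and 8.76 after NMU. Every NMU array stood above every control array, and also above the other 33 arrays of the series. The change was +2.15 (SE 0.15, 4.45-fold, limma adjusted p = 1.84e-10).

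RT1-S3 is the rat counterpart of mouse Qa-1, a class Ib molecule whose ligands on natural killer cells and T cells are CD94/NKG2 receptors. It is read by 4 probe sets, of which 2 were designed on the same source sequence and so are not independent. The probe set 1388212_a_at read 9.65, 9.61 and 9.71 in F344 controls at 1 d and 11.03, 11.02 and 10.84 after NMU, a change of +1.31 (SE 0.18, 2.47-fold, limma adjusted p = 1.70e-05). In all 4 probe sets the NMU arrays lay above the control arrays. The other 3, 1388213_a_at, 1371123_x_at and 1388164_at, rose by +1.24, +1.25 and +1.17, with limma adjusted p-values of 7.69e-05, 8.27e-05 and 4.57e-05. The levels of 1388164_at were 8.74, 8.81 and 8.89 in controls and 9.99, 10.05 and 9.90 after NMU. Those of 1388213_a_at were 9.06 in all 3 controls and 10.27, 10.46 and 10.16 after NMU. For 1371123_x_at they were 9.55, 9.62 and 9.43, then 10.81, 10.92 and 10.61. Probe sets whose names carry _x, _s or _a can bind RNA of more than 1 gene or transcript, so near-identical class I genes may share these signals.

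RT1-N3, another class Ib gene, went from 5.49, 5.75 and 5.75 to 6.80, 6.93 and 6.75, with no overlap. The change was +1.17 (SE 0.19, 2.24-fold, limma adjusted p = 2.74e-04). RT1-T24-4, which lies between RT1-S3 and RT1-T24-3, read 8.81, 8.80 and 8.51 in controls and 9.30, 9.48 and 9.55 after NMU. Its arrays did not overlap either, but its change of +0.74 (SE 0.19) did not pass (limma adjusted p = 0.0564). RT1-M3-1, the counterpart of the mouse class Ib gene H2-M3, which presents peptides with a formylated first residue, had a change of +0.42 that did not pass (limma adjusted p = 0.157).

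B2m, the light chain shared by all class I molecules, changed less. Its probe set 1367595_s_at read 13.38, 13.19 and 13.18 in controls and 13.58, 13.56 and 13.56 after NMU, with no overlap, and rose by +0.32 (SE 0.06, 1.25-fold, limma adjusted p = 0.00303). The second B2m probe set, 1371440_at, gave the same size, +0.32 (SE 0.11), from 11.39, 11.37 and 11.41 to 11.75, 11.68 and 11.70, and did not pass (limma adjusted p = 0.274). When the model was fitted on the 6 compared arrays alone, the B2m call was lost (limma adjusted p = 0.0856). RT1-CE16, a class I heavy chain gene, read 8.53, 8.13 and 8.19 in controls and 8.89, 8.80 and 8.95 after NMU, a rise of +0.60 (SE 0.15, 1.52-fold, limma adjusted p = 0.0389). This call was lost under 5 of 8 other settings and without any one of 4 of the 6 arrays, with limma adjusted p-values of 0.0185 to 0.276 over all of them. Tapbp, the tapasin that joins class I molecules to TAP, had a change of +0.47 that did not pass (limma adjusted p = 0.126), and so had RT1-A, a classical class I heavy chain, at +0.51 (limma adjusted p = 0.359).

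**Figure D1:**
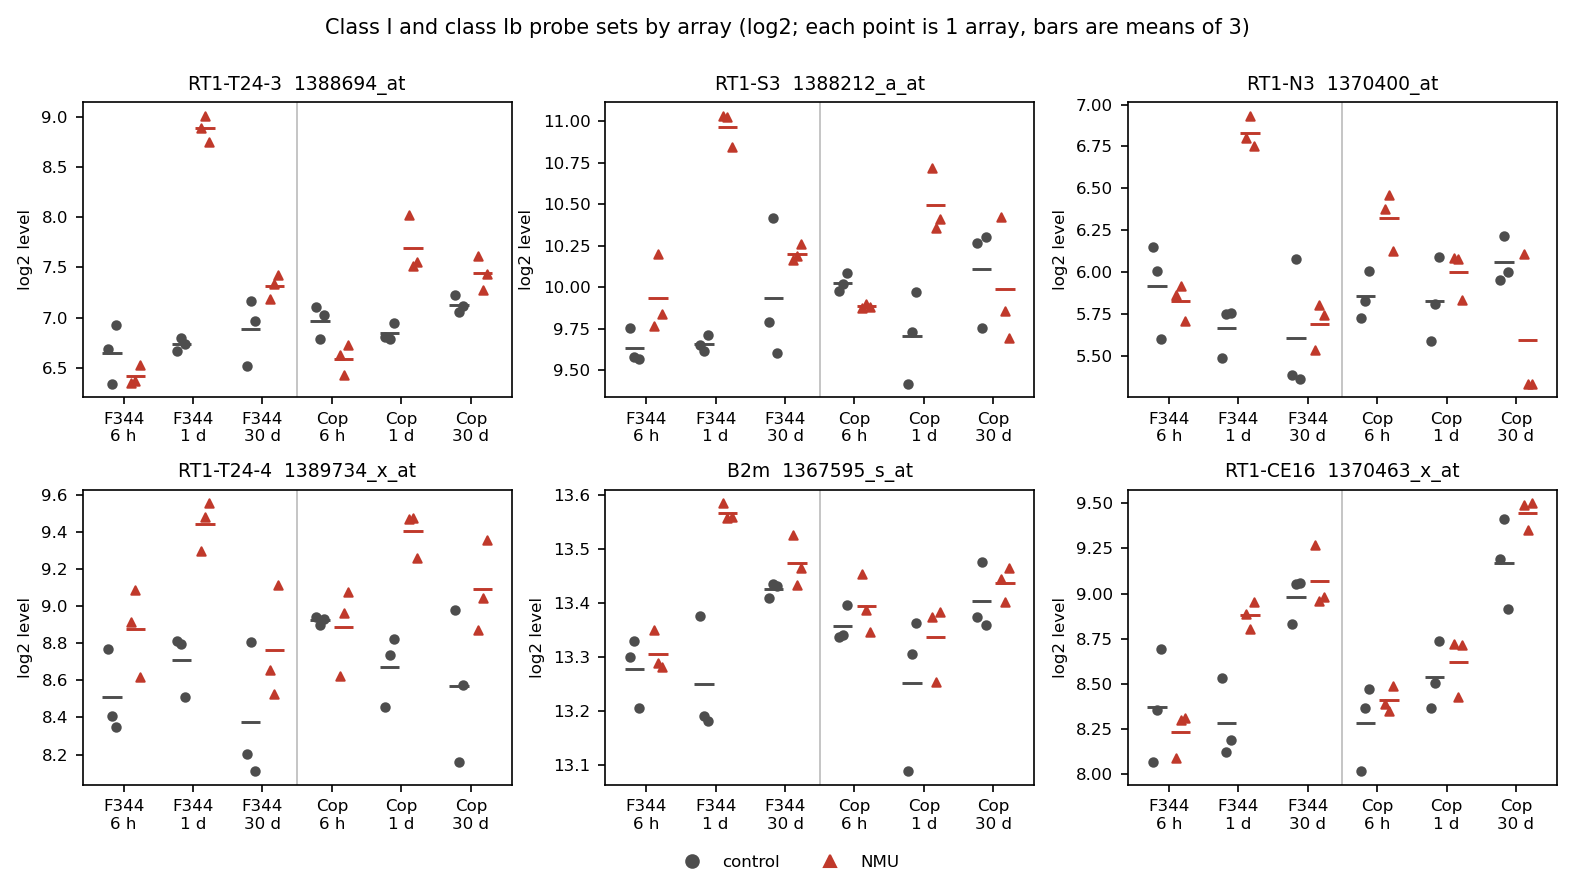
Log2 level of 6 class I, class Ib and B2m probe sets on every array, by strain and time; grey circles are controls, red triangles NMU, bars are means of 3 arrays, and each panel has its own scale. RT1-T24-3 stood at 8.76 to 9.02 in F344 1 d after NMU and at 7.51 to 8.02 in Cop, against 6.66 to 6.95 in the controls of both strains at that time.

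The genes that make and load class I peptides moved in the same comparison. Of 12 tested genes of a list for class I loading and the immunoproteasome, 6 rose in F344 at 1 d and none fell, with a median of +0.63. Psmb9, a catalytic subunit of the immunoproteasome, went from 9.45, 9.38 and 9.36 to 10.55, 10.77 and 10.48 (+1.20, limma adjusted p = 1.77e-05). Tap1, a subunit of the peptide transporter, went from 7.89, 7.90 and 8.07 to 9.24, 9.14 and 8.96 (+1.16, limma adjusted p = 2.47e-05). Psme1 and Psme2, subunits of the proteasome activator PA28, rose by +0.56 and +0.58. Of 14 tested genes of interferon signalling, 5 rose, among them Irf7, an interferon regulatory factor, at +2.34 (SE 0.21, limma adjusted p = 9.89e-09), and Gbp2, an interferon-induced GTPase, at +1.67. Irf9 and Stat2, parts of the complex that binds the interferon response element, rose by +0.70 and +0.88. Of 12 tested genes for class II control and peptide processing, 0 passed limma's test, with a median of +0.08. Cd74 and Ciita of that list are also members, counted above. Of 9 tested receptors and coreceptors by which T and natural killer cells read MHC molecules, 0 passed, with a median of +0.13. In Cd8a, Cd8b, Klrk1 and Klrd1 every NMU array lay above every control. Cd8a read 7.07, 7.07 and 7.27, then 8.04, 7.96 and 7.81. Klrk1 read 6.90, 7.07 and 7.14, then 7.76, 7.73 and 7.78. In Cd4, Cd247, Cd3d, Cd3e and Cd3g the arrays overlapped. Of the 9, Cd3d, Cd3e, Cd3g and Cd8a are also among the T cell markers below.

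Markers of other cells were read beside these changes as a mean deviation, the mean over a list's genes of the log2 level minus that gene's mean over all 36 arrays. In F344 at 1 d the T cell deviation was -0.05 to 0.14 in controls and 0.09 to 0.21 after NMU, and that of B cells was -0.27 to -0.17 and 0.12 to 0.47. None of 8 T cell, 6 B cell or 9 macrophage markers tested was called there by limma, and 1 of 7 dendritic cell markers was, Itgax at +1.33. Skeletal muscle markers had a median of -2.19, with none of 9 called. The part of such cells in the class I result was not tested.

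In Cop glands at 1 d, 4 of 32 probe sets rose and none fell (12.5%, against 0.41% of all probe sets called higher), and all 4 were for RT1-T24-3 and RT1-S3. RT1-T24-3 read 6.81, 6.78 and 6.95 in controls and 8.02, 7.51 and 7.55 after NMU, with no overlap, a change of +0.85 (SE 0.15, 1.80-fold, limma adjusted p = 0.00421). For RT1-S3, 1388213_a_at went from 8.69, 8.98 and 9.35 to 10.12, 9.72 and 9.76 (+0.86, limma adjusted p = 0.0175). The levels of 1388164_at went from 8.43, 8.89 and 9.08 to 9.77, 9.57 and 9.53 (+0.83, limma adjusted p = 0.0110). Those of 1388212_a_at went from 9.42, 9.73 and 9.97 to 10.72, 10.36 and 10.41 (+0.79, limma adjusted p = 0.0214, or 0.0540 with the replicate number as a block). The remaining RT1-S3 probe set, 1371123_x_at, had a change of +0.73 (limma adjusted p = 0.0585), and RT1-T24-4 one of +0.73 (limma adjusted p = 0.0647). In each of these 6 probe sets the NMU arrays lay above the controls. RT1-N3 differed by +0.17 in Cop, with arrays that overlapped (5.59, 5.81 and 6.09 against 6.09, 6.08 and 5.83). Cop NMU replicate 1 was the highest array for RT1-T24-3 and for 1388164_at, 1388212_a_at and 1388213_a_at, and without it all 4 calls were lost, with changes of +0.68 to +0.75 and limma adjusted p-values of 0.0630 to 0.167. Without control replicate 1 there was 1 call and without control replicate 2 there were 2. None of the genes of class I loading, class II control or interferon signalling was called in Cop at 1 d, and their medians were +0.06, +0.03 and +0.16.

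The difference between the strains' responses at 1 d was tested directly as an interaction. RT1-T24-3 alone among the members passed: the Cop response was smaller than that of F344 by 1.30 on the log2 scale (-1.30, SE 0.22, limma adjusted p = 0.00340), where 0.193% of all probe sets were called lower. It passed under all 8 other settings and with any one of the 12 arrays left out, with limma adjusted p-values of 0.00162 to 0.0203. RT1-T24-3 is read by 1 member probe set. How well its probes match the RNA of either strain was not tested, so the difference is one of signal. RT1-N3 had a difference of -0.99 (SE 0.27) that did not pass (limma adjusted p = 0.141). The RT1-S3 probe sets had differences of -0.52 to -0.34 (SE 0.24 to 0.27), none of which passed, so the data do not show that the RT1-S3 response differed between strains, nor that it was equal. RT1-T24-4 had a difference of -0.01 (SE 0.27). The responses of the strains share no arrays. The difference was above 0 in 3 of the 32 members, all RT1-CE5 probe sets (+0.15 to +0.50). Of these, 1371209_at and 1371210_s_at were above the 40th percentile on only 0 and 2 of 18 F344 arrays. An F344 response, and so a difference of responses, cannot be read from them.

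At 6 h the members gave few calls. In F344 at 6 h, 0 of 32 passed limma's test at an adjusted p under 0.05 and 0 at an unadjusted one, against 0.622% of all probe sets called in either direction. In Cop at 6 h, RT1-M3-1 fell, from 8.88, 8.72 and 8.94 in controls to 8.51, 8.27 and 8.18 after NMU, without overlap (-0.53, SE 0.13, limma adjusted p = 0.0118). That is 1 of 32, against 2.83% of all probe sets called lower, and the call was lost when any one of 4 of the 6 arrays was left out (limma adjusted p up to 0.0846). In the same comparison 4 of 8 T cell markers fell, with a median of -2.12 over the list, and their deviation was 0.61 to 1.19 in controls and 0.09, -1.31 and -1.26 after NMU. The part of this in the RT1-M3-1 value was not tested. The difference between the strains' responses at 6 h gave 0 calls of 32 (3 at an unadjusted p under 0.05 by limma), against 0.877% of all probe sets.

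**Figure D2:**
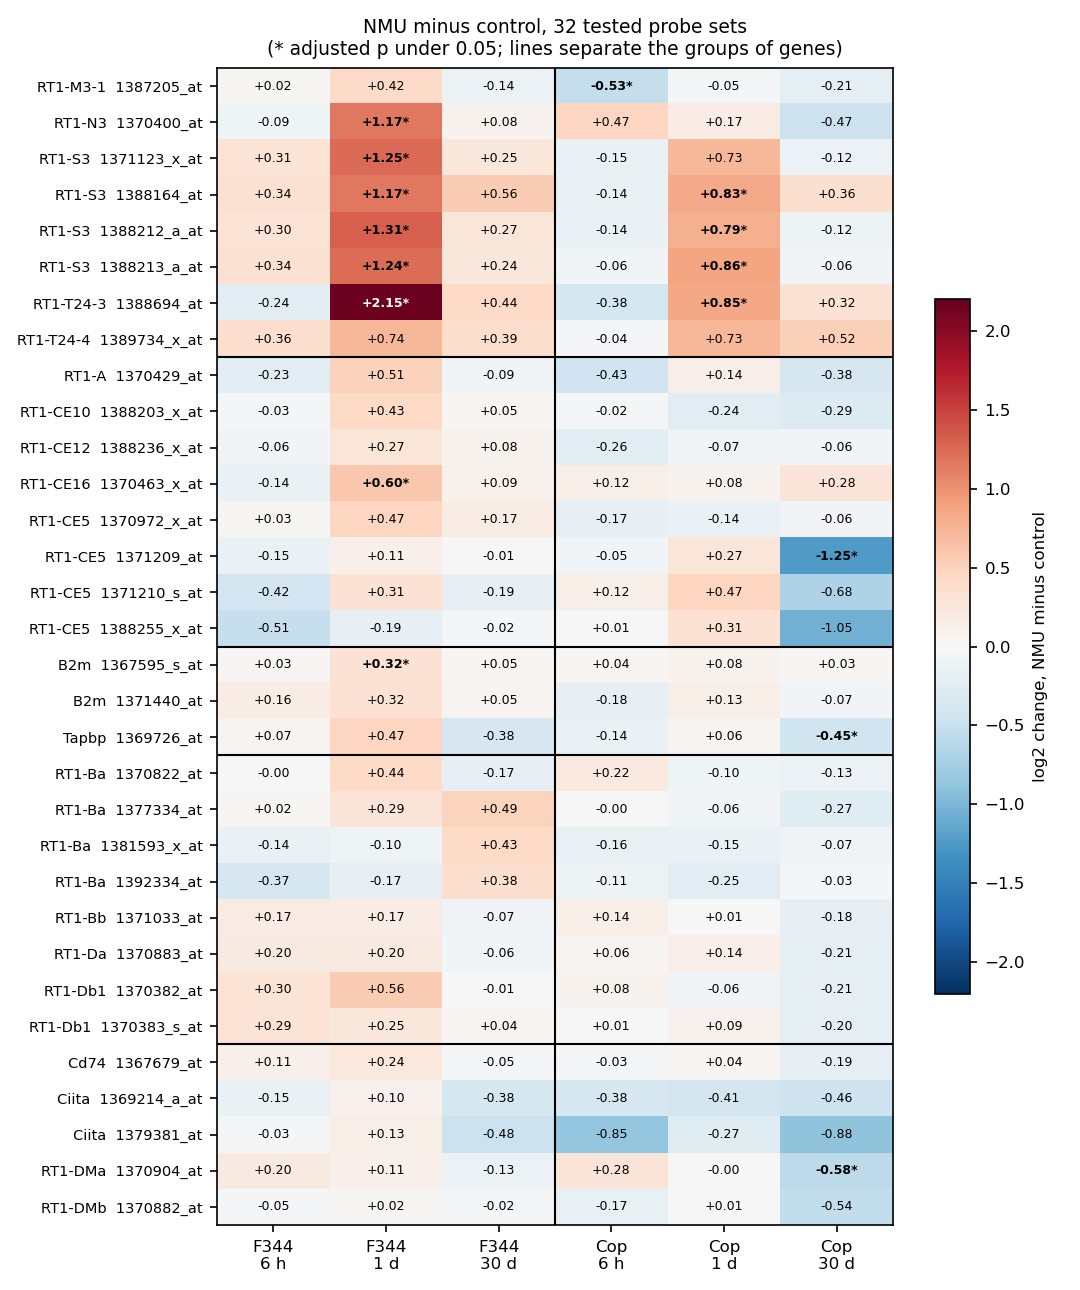
Log2 change after NMU (NMU mean minus control mean of 3 arrays each) for the 32 tested probe sets in rows, grouped by class, and the 6 strain and time comparisons in columns; red is higher and blue lower after NMU, and asterisks mark adjusted p under 0.05. The calls in F344 at 1 d lie in the class Ib, class I and B2m rows, and no class II chain carries an asterisk in any column.

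At 30 d the response of the members had few calls. In F344, 0 of 32 passed limma's test (4 at an unadjusted p under 0.05), against 3.29% of all probe sets called in either direction. The smallest adjusted p there was that of the RT1-S3 probe set 1388164_at, at 0.0554, with a change of +0.56. Without control replicate 2 there were 2 calls, and without NMU replicate 3 there was 1. RT1-T24-3 read 6.51, 7.16 and 6.97 in controls and 7.18, 7.34 and 7.42 after NMU in F344, and 7.22, 7.05 and 7.12, then 7.62, 7.28 and 7.44 in Cop. The arrays did not overlap in either strain, but the changes of +0.44 and +0.32 did not pass (limma adjusted p = 0.112 and 0.196).

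In Cop at 30 d, 3 probe sets fell (9.38%, against 5.48% of all probe sets called lower), and 11 of 32 had an unadjusted p under 0.05 by limma. RT1-DMa, the alpha chain of the DM peptide exchange protein, went from 8.76, 8.30 and 8.40 to 8.30, 7.77 and 7.65 (-0.58, SE 0.18, limma adjusted p = 0.0366), with NMU replicate 1 level with the lowest control. Tapbp went from 8.72, 8.77 and 8.78 to 8.62, 8.16 and 8.15 (-0.45, SE 0.14, limma adjusted p = 0.0377), with no overlap. The RT1-CE5 probe set 1371209_at, for a class I heavy chain, went from 9.50, 8.86 and 8.84 to 9.56, 7.35 and 6.54 (-1.25, SE 0.39, limma adjusted p = 0.0398). Of these 3 NMU arrays, replicate 1 read at or near the control levels in all 3 probe sets, and the fall lay in replicates 2 and 3. The other tested RT1-CE5 probe sets were not called. Of them, 1388255_x_at went from 9.16, 8.46 and 8.26 to 9.26, 7.04 and 6.43. The levels of 1371210_s_at went from 7.63, 6.85 and 6.43 to 7.34, 6.07 and 5.44, and those of 1370972_x_at from 8.21, 8.11 and 7.74 to 8.40, 7.67 and 7.81.

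Replicates 2 and 3 also stood apart in lymphocyte markers. The B cell deviation was 0.62 to 1.09 in Cop controls at 30 d, and 1.18, -2.55 and -2.45 in NMU replicates 1, 2 and 3. For T cells it was 0.48 to 1.02, then 0.73, -2.45 and -2.27. Of the markers tested, 4 of 6 for B cells (Ms4a1, Cd79b, Cr2 and Fcrla) and 6 of 8 for T cells (Cd3g, Lck, Cd3d and Cd5 among them) fell, while 8 of 9 endothelial markers rose and 5 of 10 of mammary epithelium fell. Of 12 genes of class I loading, 4 fell (Psme2, Psmb9, Psmb8 and Psmb10, with changes of -0.35, -0.53, -0.60 and -0.47). The part of these cells in the fall of RT1-DMa, Tapbp and RT1-CE5 was not tested. Without NMU replicate 1, 12 members were called, and the changes of RT1-DMa, Tapbp and RT1-CE5 were -0.77, -0.60 and -2.13. With another of the 6 arrays left out they came as near to 0 as -0.44, -0.37 and, without NMU replicate 3, -0.61. Without NMU replicate 2 or 3, or without control replicate 3, no member was called. Without control replicate 2 there was 1 call, for RT1-DMa, and without control replicate 1 there was 1, for none of these 3. On the 6 compared arrays alone no member was called. The difference between the strains' responses at 30 d gave 0 calls of 32 by limma (3 at an unadjusted p under 0.05), and 0% of all probe sets were called. Without Cop NMU replicate 1, 2 members were called.

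**Figure D3:**
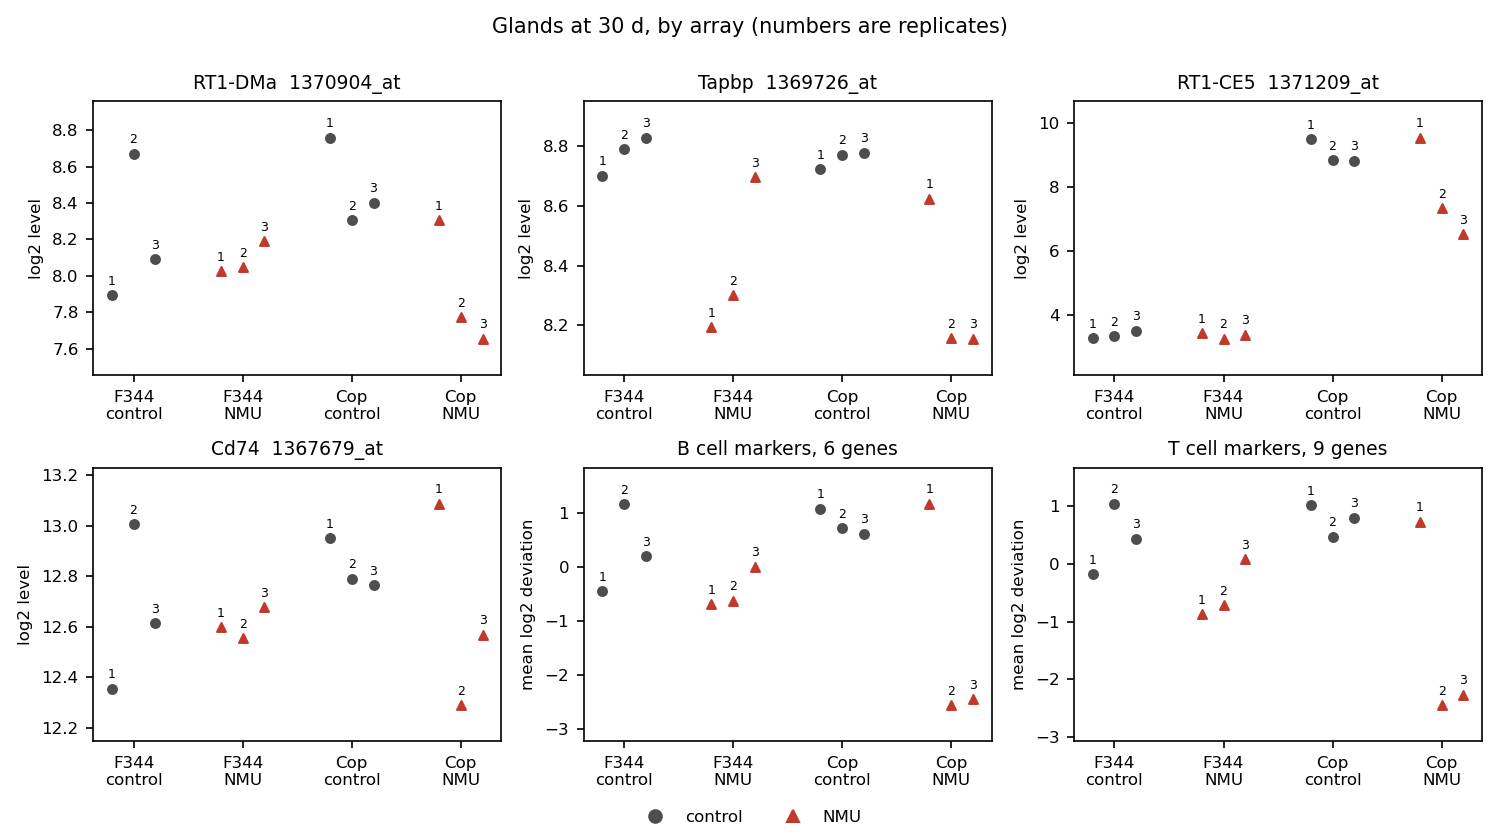
Log2 levels of RT1-DMa, Tapbp, RT1-CE5 (1371209_at) and Cd74, and the mean log2 deviation of 6 B cell and 9 T cell markers, on each array at 30 d; numbers are replicates, grey circles controls and red triangles NMU. In Cop NMU replicates 2 and 3, RT1-CE5 read 7.35 and 6.54 and the B cell deviation was -2.55 and -2.45, while in replicate 1 they were 9.56 and 1.18.

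Between strains, 15 of the 32 probe sets differed in control glands over the 3 times (46.9%, against 26.1% of all probe sets called in either direction), 12 higher and 3 lower in Cop, from 11 genes. In NMU glands 11 differed (34.4%, against 22.8%), 7 higher and 4 lower. In the M, N, S and T24 series 1 of 8 probe sets was called in each arm, and in the A and CE series 7 of 8 were. The latter include the RT1-CE5 probe sets 1371209_at and 1371210_s_at, which would have failed the filter on F344 arrays alone. They were tested only through the Cop arrays, where they read higher, so their calls are no independent support for a strain difference. How far probes match the RNA of either strain less well was not tested, so a difference here is one of signal and not by itself of RNA amount.

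RT1-CE5 is read by 5 probe sets that gave very unlike results. The probe set 1371209_at read between 3.14 and 3.53 on the 18 F344 arrays, all below the 40th percentile of their array, and between 6.54 and 9.56, with a median of 8.81, on the 18 Cop arrays, all above it. The strain groups did not overlap at any time. The probe set passed the filter only through the Cop arrays, so no p-value is given for its strain difference. That difference was, in the deposited values, +5.49 in controls and +5.17 after NMU. Because the F344 levels lay this low, only a lower bound of the difference can be read from them. With levels below the 20th percentile of an array raised to that percentile, it was at least +4.88 in controls and at least +4.56 after NMU. For 1388255_x_at, which was designed on the same source sequence, F344 arrays had a mean of 5.21 and Cop arrays one of 8.22, a difference of +3.02 in controls and +3.01 after NMU. The probe set 1371210_s_at differed by +1.97, with 4.05 to 5.07 in F344 and 5.44 to 7.63 in Cop, and 16 of 18 F344 arrays were below the 40th percentile, so that this too is a lower bound; raising levels to the 20th percentile left it at +1.97. Another, 1370972_x_at, differed by +0.86. After NMU these 2 differed by +2.03 and +0.51. The last, 1388254_a_at, was again designed on the first sequence, yet was below the 40th percentile on every array of both strains, at 3.35 to 4.69.

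RT1-A read 5.94 to 6.65 on F344 arrays and 7.57 to 9.01 on Cop arrays, and was higher in Cop by +2.10 in controls (SE 0.12, 4.29-fold, limma adjusted p = 1.17e-14) and +1.81 after NMU. RT1-CE10 read 7.16 to 7.88 in F344 (median 7.58) and 7.66 to 8.53 in Cop (median 8.07), overlapping ranges, and was higher in Cop by +0.73 in controls and +0.40 after NMU. RT1-CE12 went the other way, at -0.23 and -0.45, with medians of 9.19 in F344 and 8.88 in Cop. Its call in controls was lost with quantile normalization, on the compared arrays alone and without any one of 3 of the 18 arrays (limma adjusted p up to 0.0917). RT1-CE16, the one member of these series that rose after NMU in F344, had strain differences of +0.12 and +0.10 that did not pass.

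Among class II chains the probe sets of one gene disagreed in direction. RT1-Ba encodes an alpha chain and is read by 4 probe sets. Its probe set 1377334_at read 6.39 to 7.84 in F344 and 9.05 to 10.10 in Cop, without overlap, and was higher in Cop by +2.76 in controls (SE 0.14, 6.79-fold, limma adjusted p = 1.28e-15) and by +2.38 after NMU. By contrast 1370822_at was lower in Cop by 1.04 on the log2 scale (-1.04, SE 0.14, limma adjusted p = 1.47e-06), with 10.33 to 11.93 in F344 and 9.32 to 10.53 in Cop, and -1.13 after NMU. The remaining RT1-Ba probe sets, 1381593_x_at and 1392334_at, share a source sequence and had differences of +0.14 and +0.25 that did not pass. RT1-Db1, a beta chain, has 2 probe sets from 1 source sequence. One, 1370382_at, was lower in Cop by 1.53 (-1.53, SE 0.15, limma adjusted p = 9.75e-09), with 6.65 to 8.09 in F344 and 5.29 to 6.49 in Cop, and -1.87 after NMU. The other, 1370383_s_at, had a difference of +0.24 (SE 0.13) that did not pass (limma adjusted p = 0.197). RT1-Da, the alpha chain that pairs with RT1-Db1, was higher in Cop controls by +0.28 (limma adjusted p = 0.0289), a call that was lost on the compared arrays alone (limma adjusted p = 0.0882) and without any one of 6 of the 18 control arrays. RT1-Bb had a difference of +0.22 that did not pass.

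**Figure D4:**
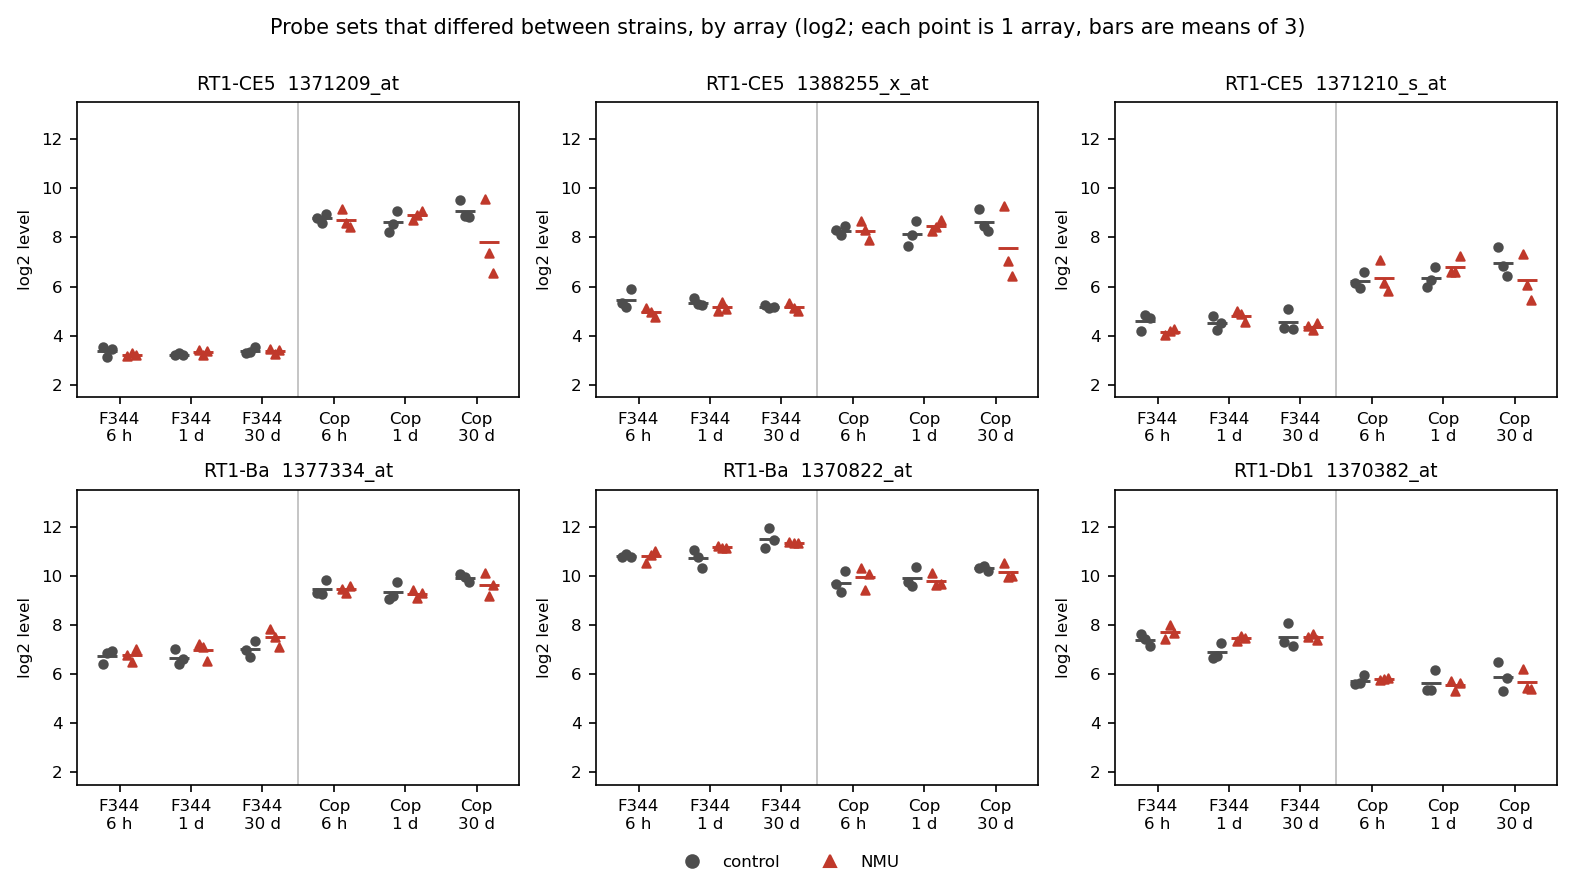
Log2 level on every array of 3 RT1-CE5, 2 RT1-Ba and 1 RT1-Db1 probe sets, by strain and time, on 1 shared scale; grey circles are controls, red triangles NMU, bars are means of 3. The RT1-CE5 probe set 1371209_at lay at 3.14 to 3.53 in F344 and at 6.54 to 9.56 in Cop, and the RT1-Ba probe sets differed between strains in opposite directions.

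The other strain differences were small. In Cop controls Cd74 was higher by +0.34, RT1-M3-1 by +0.34, Tapbp by +0.22 and the B2m probe set 1371440_at by +0.21 (limma adjusted p = 0.00812, 0.00127, 0.0431 and 0.0169), and none of these 4 was called in NMU glands. Their levels overlapped between strains; those of Cd74 were 12.06 to 13.01 in F344 (median 12.31) and 12.07 to 13.09 in Cop (median 12.64). The Tapbp call was lost when any one of 13 of the 18 control arrays was left out, and that of B2m without F344 control replicate 3 at 6 h (limma adjusted p = 0.0525). Over the NMU glands of the 3 times RT1-T24-3 was lower in Cop (-0.30, SE 0.09, limma adjusted p = 0.0155), which rests on the 1 d arrays. Its NMU means in Cop and F344 were 7.70 and 8.89 at 1 d, but 6.59 and 6.41 at 6 h and 7.45 and 7.32 at 30 d, where Cop was the higher one. Of the 12 genes of class I loading, 6 were higher and 1 lower in Cop controls, among them Psmb10 at +0.51, Psmb9 at +0.52, Psmb8 at +0.57 and Psme1 at +0.26. In NMU glands none was higher and 2 were lower. Beside these, 3 of 9 macrophage markers and 4 of 10 of mammary epithelium were higher in Cop controls and 8 of 9 of fat were lower, and their part in the small differences was not tested.

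**Figure D5:**
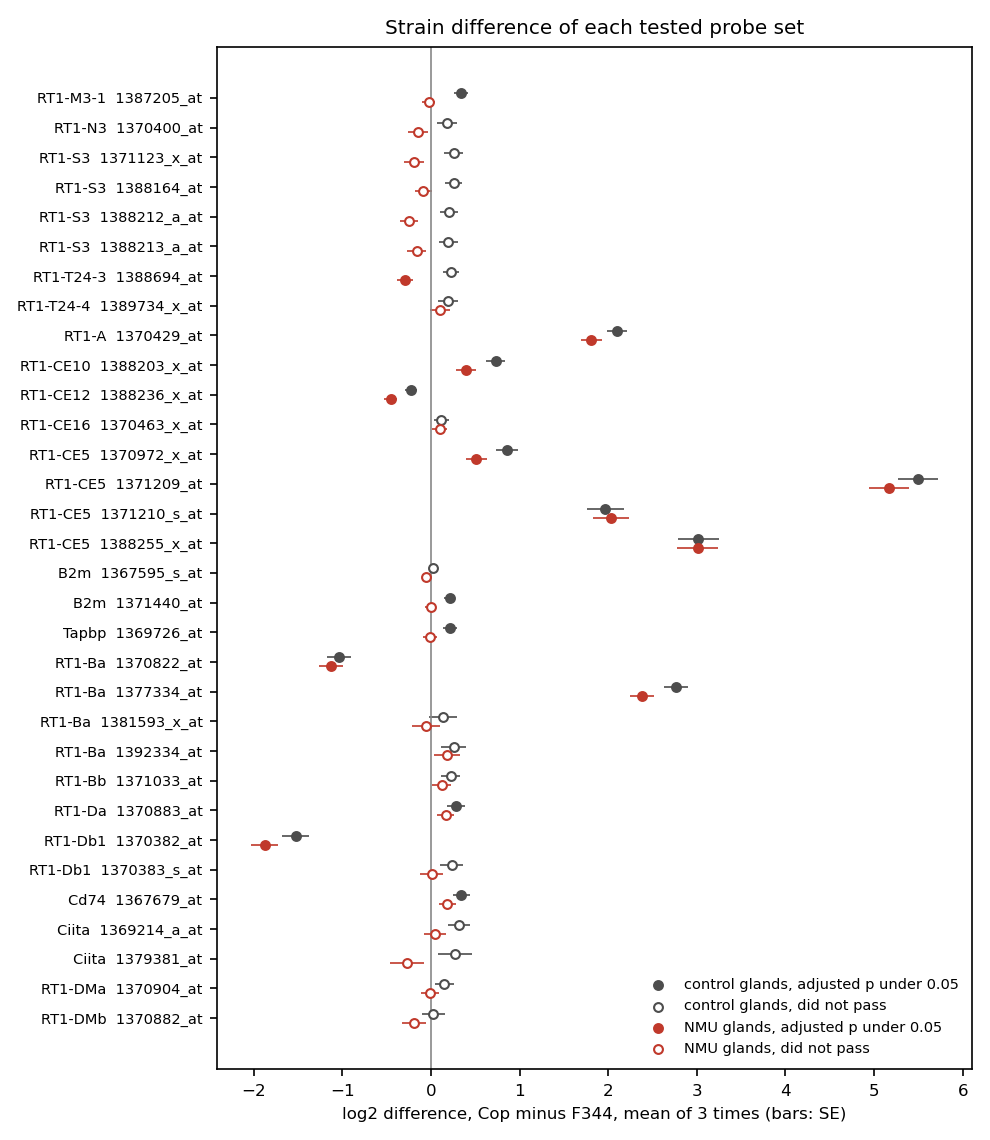
Log2 difference between strains (Cop minus F344, mean of the 3 times, bars are SE) of each tested probe set, in control glands (grey) and NMU glands (red); filled points passed at an adjusted p under 0.05. In controls 3 RT1-CE5 probe sets, RT1-A and 1 RT1-Ba probe set lay between +1.97 and +5.49, while another RT1-Ba probe set (-1.04) and 1 of RT1-Db1 (-1.53) lay on the other side of 0.

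Control glands at 30 d were compared with those at 6 h and 1 d. The rats were older at 30 d, but age cannot be told apart from anything else that differed between these times, such as handling. In F344, 8 of 32 probe sets were higher at 30 d (25%, against 13.8% of all probe sets called higher) and none lower. RT1-CE16 rose most clearly, with 8.83, 9.06 and 9.06 at 30 d against 8.07 to 8.69 over the 6 earlier arrays (+0.66, SE 0.13, limma adjusted p = 2.81e-04). Tapbp read 8.70, 8.79 and 8.83 against 8.21 to 8.43 (+0.48, limma adjusted p = 0.00312). B2m (1367595_s_at) read 13.41, 13.43 and 13.43 against 13.18 to 13.38 (+0.16, limma adjusted p = 0.0236), a call that was lost under 2 of 8 other settings and without any one of 6 of the 9 arrays (limma adjusted p up to 0.0811). The second B2m probe set, 1371440_at, read 11.52, 11.71 and 11.57 against 11.20 to 11.63 and was not called.

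Of the class II probe sets, 3 of 8 for chains and 2 of 5 for partners rose in F344, and in these called probe sets 1 array was ahead of the others. RT1-Ba (1370822_at) read 11.15, 11.93 and 11.45 at 30 d against 10.33 to 11.04 earlier (+0.76, limma adjusted p = 0.00554). Cd74 read 12.36, 13.01 and 12.61 against 12.06 to 12.29 (+0.53, limma adjusted p = 0.00585). For RT1-Bb (1371033_at) the levels were 10.95, 11.79 and 11.22 against 10.63 to 10.98 (+0.51, limma adjusted p = 0.0160). Replicate 2 was the highest of the 3 in each of these, and the lowest 30 d array of RT1-Bb lay within the earlier range. The RT1-Ba probe sets 1377334_at, 1381593_x_at and 1392334_at were not called. There replicate 2 was the lowest F344 control at 30 d (6.68, 6.72 and 6.93). Ciita (1369214_a_at) read 6.35, 7.28 and 6.75 against 6.08 to 6.35 (+0.58, limma adjusted p = 0.0227), and RT1-Db1 (1370383_s_at) read 10.23, 11.21 and 10.55 against 9.99 to 10.27 (+0.53, limma adjusted p = 0.0429). The second probe sets of these genes were not called. Ciita 1379381_at read 6.58, 7.44 and 6.72 against 6.12 to 6.88 earlier, and RT1-Db1 1370382_at read 7.32, 8.09 and 7.14 against 6.65 to 7.62. In the F344 control replicate 2 at 30 d the B cell deviation was 1.17, against -0.45 and 0.20 in the other 2 arrays. Without it, 2 of 32 were called, and without replicate 3, 5 were. Without replicate 2, the changes of Cd74, RT1-Ba, RT1-Bb, Ciita and RT1-Db1 were +0.35, +0.54, +0.27, +0.33 and +0.26, none of which passed. The RT1-Db1 call was also lost under 2 of 8 other settings and without any one of 8 of the 9 arrays, replicate 2 among them, and that of Ciita without any one of 3. In the same comparison all 10 markers of mammary epithelium rose, with a median of +1.44, and all 9 of skeletal muscle fell, with a median of -5.50. Their part in these values was not tested.

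In Cop, 2 of 32 were higher at 30 d (6.25%, against 1.84% of all probe sets called higher). RT1-CE16 read 9.19, 9.41 and 8.92 against 8.02 to 8.74 earlier (+0.76, SE 0.13, limma adjusted p = 3.01e-04), the same gene as in F344. RT1-A read 8.80, 8.92 and 8.58 against 7.95 to 8.53 (+0.58, SE 0.17, limma adjusted p = 0.0368), a call that was lost on the control arrays of Cop alone and without any one of 6 of the 9. Without Cop control replicate 3 at 1 d, 5 were called. Between the strains' changes from the earlier times to 30 d, 0 of 32 differed by limma's test (1 at an unadjusted p under 0.05), against 5.08% of all probe sets called in either direction. The calls in one strain and not the other thus do not show that the strains differed. In that comparison 7 of 9 skeletal muscle markers differed, and their part was not tested.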

How the data were processed

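Expression was measured on Affymetrix rat arrays from 36 mammary gland samples. Per the labels' protocols, RNA was prepared with Qiagen columns, and 1 ug of it went into biotin-labelled cRNA. GCOS is named in the submitters' processing notes, without a version. The values were deposited by the authors as log2 expression per probe set; their summarization and normalization are not stated in the labels or the notes used here, and nothing was changed. Arrays give no read depth, so the number of arrays limits the precision.

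Control spots (57) were left out, and probe sets above the 40th percentile of their array on at least 3 arrays were tested (20748 of 31099 in the table). A model of the 12 group means was fitted over the 36 arrays in limma 3.58.1 (R 4.3.3; eBayes with trend and robust), so that the groups share one estimate of the spread, and p-values were adjusted by the Benjamini-Hochberg method within each of 14 comparisons. The procedure was tested on simulated data. Gene symbols are those of the platform annotation, which can be old; 6 probe sets with several RT1 symbols are no members. Promoters are from RefSeq's GRCr8 table, and 21 of 22 members were matched in its gene table by gene ID. The members, the gene lists and the tests were chosen with earlier results of these data known. Every called member was named; of the other lists, up to 4 called genes of smallest p per comparison.

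Replicate numbers, which the labels give in every group, were checked by correlating the deviations of same-numbered control and NMU arrays from their group means. In Cop at 6 h (0.114, 0.142 and 0.435) and at 1 d (0.202, 0.424 and 0.315) every pair was over 0.1. The numbers were taken to pair the arrays there, and elsewhere they were not. The reported model nevertheless holds no replicate block, so its p-values, those of Cop at 6 h and 1 d included, treat the arrays as unpaired. The block was fitted only as an alternative, and then for both strains. Alternatives were levels below the 20th percentile raised to it, quantile normalization, a filter at the 60th percentile or none, eBayes without trend and robust, the replicate block, the compared arrays alone, each array left out and, chosen after the data were seen, F344 control replicates 1 and 2 at 1 d averaged, since they were the closest pair (root mean square log2 difference 0.163, next 0.232).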

Additional observations from a re-analysis of the deposited data

Results flagged for a closer look

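At 1 d the response to NMU differed between the strains, by limma's test of the difference itself, for RT1-T24-3 among the members and for Psmb9, Gbp2, Irf7 and Itgax among the genes of the lists read beside them. RT1-T24-3, read by 1 member probe set, had a Cop response smaller by 1.30 on the log2 scale (-1.30, SE 0.22, limma adjusted p = 0.00340), with every NMU array above every control array in both strains. Psmb9, the immunoproteasome subunit, had a difference of -1.09 (SE 0.23, adjusted p = 0.0306); its Cop levels were 9.81, 10.06 and 10.30 in controls and 10.04, 10.08 and 10.38 after NMU. For Gbp2 the difference was -1.12 (SE 0.22, adjusted p = 0.0164), and for Irf7 it was -1.59 (SE 0.29, adjusted p = 0.00861), with Irf7 at 8.61, 8.85 and 9.03 in Cop controls and 9.73, 9.42 and 9.57 after NMU, and at 8.32, 8.29 and 8.08, then 10.60, 10.70 and 10.40 in F344. For Itgax, a dendritic cell marker, the difference was -1.56 (SE 0.25, adjusted p = 0.00255). It was the only 1 of 7 tested markers of its list to pass, and the list's median was -0.25. At 6 h the response of Pparg, from the fat marker list, differed by -1.18 (SE 0.27, adjusted p = 0.0274), beside 0 members.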

How the results depend on the processing

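The alternatives were run on the count of members called in each of the 14 comparisons and on each called value. Of 1090 recomputed values of single probe sets, 988 kept direction and call, 102 kept direction and lost the call, and 0 reversed. With the replicate number as a block, 3 members were called in Cop at 1 d in place of 4, 7 in F344 at 1 d in place of 8, and 6 in Cop at 30 d in place of 3; beside the RT1-S3 call named above, the block changed no call of a member in Cop at 6 h or 1 d. In Cop at 30 d, 1 was called with no filter and 0 on the compared arrays alone. In F344 at 30 d, 1 was called with quantile normalization and 1 with the filter at the 60th percentile, where the value as reported is 0. On the compared arrays alone 2 were called in Cop at 6 h and 1 in the Cop comparison of 30 d with earlier controls. With each array left out in turn, the count ranged from 0 to 2 in F344 at 30 d (2 without F344 control replicate 2), 0 to 1 in Cop at 6 h, 0 to 5 in Cop at 1 d, 0 to 12 in Cop at 30 d, 0 to 2 in the difference between responses at 30 d, 2 to 9 in F344 and 1 to 5 in Cop for 30 d against earlier controls, and 13 to 22 and 11 to 13 for the strains' control and NMU glands. The cause of these moves was not tested. In F344 at 1 d it was 7 to 8.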

Other observations

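Probe sets that the annotation gives to several RT1 genes are no members, and 3 of 6 were tested. The probe set 1371078_at, given to RT1-A, RT1-CE5 and 3 other CE genes, was higher in Cop by +1.07 in control glands (SE 0.11, limma adjusted p = 1.74e-08) and by +0.57 in NMU glands (limma adjusted p = 2.47e-04). In F344 at 1 d after NMU its change was +0.64 (SE 0.19), which did not pass (limma adjusted p = 0.134). The other 2, given to RT1-A, RT1-CE16 and RT1-A1 and to RT1-A2 and RT1-A1, had strain differences of +0.01 and +0.04 in controls that did not pass. A probe set given to both RT1-T24-3 and RT1-T24-4 was not tested, since it was below the 40th percentile on too many arrays.

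Itgax, which encodes the integrin CD11c of dendritic cells and macrophages, rose in F344 at 1 d after NMU by +1.33 (SE 0.18, limma adjusted p = 1.26e-05). At 6 h it rose in both strains, by +0.81 in F344 and +0.69 in Cop (limma adjusted p = 0.0262 and 0.0147). Erap1, which trims peptides for class I molecules, was lower in Cop in both arms, by 0.23 and 0.27 (-0.23 and -0.27).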
